A study of Mus musculus with 12 samples.

Results

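Fluid fills kidney cysts through a small set of chloride, potassium and nucleotide-sensing proteins, and 6 of their genes were followed here: *P2ry2*, *Cftr*, *Ano1*, *Ano6*, *Kcnn4* and *Slc12a2*. They were taken by symbol from the 35275 genes counted in mouse kidney RNA, each symbol had 1 row, and all 6 had enough reads to be tested in every comparison. In RC/RC kidneys *Ano1* was 1.89-fold and *Kcnn4* 2.31-fold the WT level, and both passed the test across all genes. The *Kcnn4* call was made in only 1 of the 8 fits that leave out 1 mouse. The other 4 genes did not pass it, beside 12.9% of all genes that did. None of the 6 passed it when RC/RC:*Casp1*KO kidneys were set against RC/RC or WT kidneys, where 11.6% and 2.03% of all genes did, so a count of 0 among 6 is near the background.

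Cyst-lining cells take up chloride with sodium and potassium across the membrane that faces the blood and let it leave through channels in the membrane that faces the lumen, and sodium and water follow. Cyclic AMP opens CFTR, the classical channel of this secretion, whereas ATP in the cyst fluid acts on P2Y2 receptors, raises cell calcium and opens calcium-activated chloride channels of the anoctamin family. Potassium channels in the opposite membrane let the potassium leave again and keep up the voltage that drives chloride out.

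Kidney tissue came from 12 C57BL/6J mice aged 6 months, and each of the 3 groups of 4 held 2 females and 2 males. WT mice carried neither mutation. RC/RC mice were homozygous for the RC allele, a knock-in missense allele of *Pkd1* that lowers its function in all cells and gives slow cystic disease, and so were the RC/RC:*Casp1*KO mice, which also lacked working *Casp1* in all cells through 1 TALEN-made deletion bred from a single line. Columns of the count table show a mouse's group but leave out its sex, so mouse 1 to mouse 4 below are only names, and the part of sex in any value was not tested.

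The reads counted on genes numbered 21761432, 22616732, 20556335 and 22656309 in WT mice 1 to 4, and 24206534, 18019819, 19292181 and 24284831 in RC/RC mice 1 to 4. They numbered 24869454, 19371954, 18738755 and 20335245 in RC/RC:*Casp1*KO mice 1 to 4. Levels are given as counts scaled to library size (CPM), scaled between libraries with TMM factors, and levels of different genes are compared only per kilobase of gene length (FPKM). *Casp1* itself was at 1.51 ± 0.366 CPM (SD, n = 4) in WT, 3.52 ± 0.703 in RC/RC and 0.690 ± 0.271 in RC/RC:*Casp1*KO kidneys. It was lower in RC/RC:*Casp1*KO than in RC/RC kidneys in all mice (log2 fold change −2.35, SE 0.32, adjusted p = 0.00514, edgeR's quasi-likelihood test). The counts cover the whole gene, of which the deletion removes only a part. *Pkd1*, whose RC allele is still transcribed, was not called in any comparison.

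Some mice of a group were more alike than others. The counts of WT mice 1 and 2 differed by a chi-square of 17.7 per degree of freedom and those of WT mice 3 and 4 by 16.4, beside 89.8 to 127 for the other WT pairs. The same held for mice 1 and 2 (15.7) and 3 and 4 (31.8) of RC/RC:*Casp1*KO, with 67.1 to 93.4 for the rest. Among RC/RC mice the closest were 3 and 4 (37.2), and all other pairs differed by 67.6 to 128. What such pairs share is not labelled, the numbers do not link mice of different groups, and its part in the values was not tested.

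Markers of kidney tubules were abundant in every library. The 5 proximal tubule markers, led by *Slc34a1*, summed to between 3218 and 11926 CPM per mouse, and none of them was at 0. Markers of blood cells differed between the groups. None of the 4 leukocyte markers *Ptprc*, *Cd52*, *Coro1a* and *Laptm5* was at 0. *Laptm5* was the highest of them in CPM over all mice and *Cd52* per kilobase. The 4 markers summed to 64.4, 47.3, 49.8 and 47.1 CPM in the WT mice and to 150, 164, 124 and 103 CPM in the RC/RC mice. Their sum in RC/RC:*Casp1*KO mice 1 to 4 was 56.8, 74.2, 67.5 and 151 CPM. Mouse 4 of that group stood apart from the other 3 and lay in the RC/RC range, so results in which it stood out are also given without it.

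Per kilobase, *Ano6* was the most abundant of the 6 genes in all groups, at 20.7 FPKM in WT, 19.2 in RC/RC and 20.6 in RC/RC:*Casp1*KO kidneys. Its WT level lay above that of 86.6% of the genes with a count. *Slc12a2* followed at 9.18 FPKM in WT kidneys, then *P2ry2* at 3.38, *Ano1* at 2.00, *Cftr* at 1.49 and *Kcnn4* at 0.504, which exceeded 43.1% of the genes with a count. The WT ranges of *P2ry2* and *Ano1* overlapped, as did those of *Ano1* and *Cftr*, so the order of these neighbours is not fixed by the data. In RC/RC kidneys *Ano1* (3.78 FPKM) no longer overlapped *Cftr* (0.994 FPKM), and the ranges of *Cftr* and *Kcnn4* (1.17 FPKM) overlapped each other. The levels in RC/RC:*Casp1*KO kidneys were 2.65 FPKM for *Ano1*, 1.14 for *Cftr* and 0.643 for *Kcnn4*, again with overlap between *Cftr* and *Kcnn4* only among these neighbours.

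**Figure D1:**
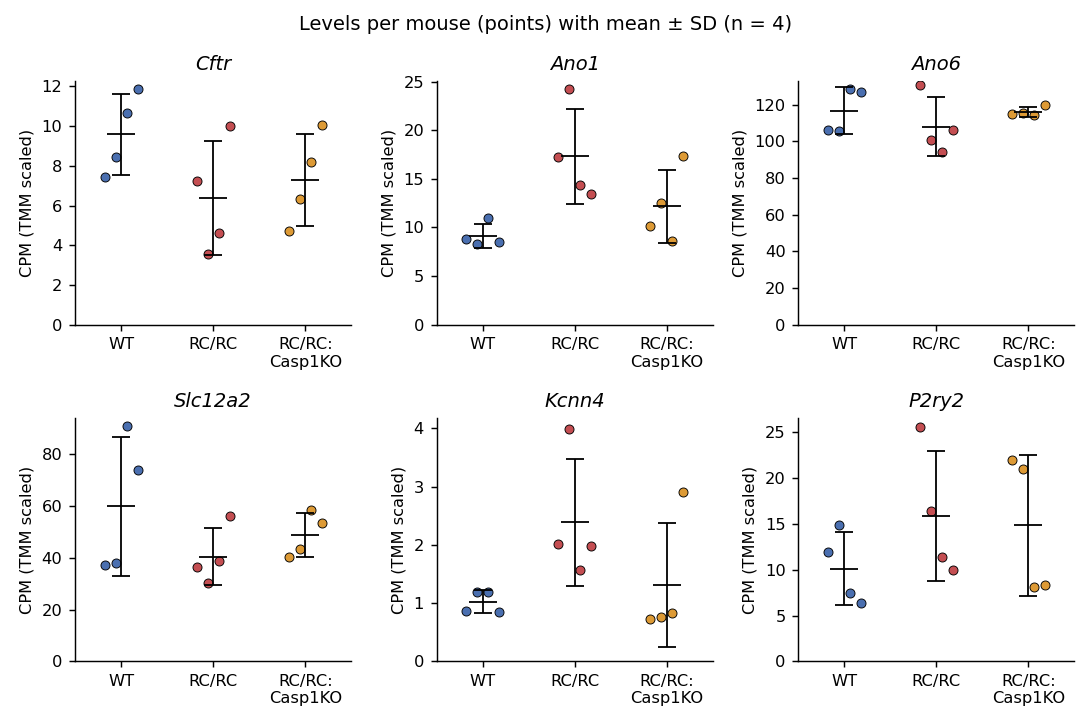
Level of each of the 6 genes in CPM (vertical axes from 0, 1 scale per panel) in 4 mice per group (points), with mean ± SD (black). All 4 RC/RC mice lie above all 4 WT mice for *Ano1* and *Kcnn4* and for neither of the other channels, the cotransporter or the receptor; *Kcnn4* in 1 RC/RC:*Casp1*KO mouse reaches 2.91 CPM.

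In RC/RC against WT kidneys, 2 of the 6 genes passed the test, where 12.9% of the 15243 genes tested did. The groups of these same 2 genes did not overlap, which held for 19.3% of all genes. The median log2 fold change was −0.02 over all genes, and 9.76% of genes were called higher and 3.18% lower. In RNA from kidney tissue, more cells of a type cannot be told apart from more RNA per cell. When RC/RC:*Casp1*KO kidneys were set against RC/RC kidneys, 0 of the 6 were called with edgeR and 0 with DESeq2, beside 11.6% of 15428 genes with edgeR and 17.6% of 18008 with DESeq2. An unadjusted p under 0.05 was reached by 0 of the 6 and by 31.7% of all genes. No gene of the 6 was free of overlap there (20.5% of all genes were). In RC/RC:*Casp1*KO against WT kidneys, again 0 of 6 were called by either tool, beside 2.03% of 15346 genes with edgeR and 8.01% of 17549 with DESeq2. There 0 of the 6 reached an unadjusted p under 0.05 (21.8% of all genes did) and 0 were free of overlap (13.7% were). The 3 comparisons share mice in pairs, and their values are set side by side only.

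*P2ry2*, the receptor for extracellular ATP and UTP at the head of the calcium route, lies in mm10 at chr7:100996572-101011991 on the minus strand. It was at 11.96, 14.8, 7.44 and 6.32 CPM in the WT mice and at 25.6, 16.5, 11.4 and 10.01 CPM in the RC/RC mice. The RC/RC:*Casp1*KO mice had 21.97, 21.0, 8.09 and 8.32 CPM. Each group spread widely, the groups overlapped, and in each of them mice 1 and 2 were above mice 3 and 4. The fit did not take this split into account and counted it as spread within groups. The log2 fold change of RC/RC against WT was 0.64 (SE 0.34, 95% interval −0.13 to 1.42, adjusted p = 0.246, edgeR's quasi-likelihood test), so a change in either direction could not be called. Against RC/RC, RC/RC:*Casp1*KO kidneys differed by −0.09 (interval −0.99 to 0.81), and against WT by 0.56 (interval −0.35 to 1.46). The first was 0.11 without RC/RC:*Casp1*KO mouse 4.

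*Cftr*, the cyclic AMP-activated chloride channel, spans chr6:18170687-18322768 on the plus strand. The WT mice had 7.42, 8.42, 10.6 and 11.9 CPM, the RC/RC mice 7.25, 3.58, 4.64 and 10.01 CPM and the RC/RC:*Casp1*KO mice 4.69, 6.31, 8.197 and 10.04 CPM. RC/RC mice 1 to 3 lay below every WT mouse, but the highest RC/RC mouse was within the WT range. The log2 fold change of RC/RC against WT was −0.59 (SE 0.31, interval −1.29 to 0.10, adjusted p = 0.238, edgeR's quasi-likelihood test). The values against RC/RC (0.19, interval −0.59 to 0.97) and against WT (−0.38, interval −0.96 to 0.19) for RC/RC:*Casp1*KO kidneys also included 0. Without RC/RC:*Casp1*KO mouse 4, the first of these was −0.0031.

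*Ano1*, which encodes the calcium-activated chloride channel TMEM16A of secretory epithelia and smooth muscle, spans chr7:144588549-144751974 on the minus strand. Its level was 8.85, 8.28, 10.99 and 8.48 CPM in WT mice, compared with 17.3, 24.2, 14.4 and 13.4 CPM in RC/RC mice. Every RC/RC mouse lay above every WT mouse. The log2 fold change was 0.92 (SE 0.20, interval 0.46 to 1.37), a 1.89-fold rise with an adjusted p = 0.0179 (edgeR's quasi-likelihood test). RC/RC:*Casp1*KO mice had 10.2, 12.6, 8.64 and 17.3 CPM and overlapped both other groups. Against RC/RC the difference was −0.51 (SE 0.25, interval −1.07 to 0.05, adjusted p = 0.194, edgeR's quasi-likelihood test), and without mouse 4 it was −0.73 (adjusted p = 0.0848). Against WT it was 0.42 (interval −0.08 to 0.92), and 0.19 without mouse 4. The rise in RC/RC kidneys was past the threshold in 6 of the 8 fits that leave out 1 mouse and not without WT mouse 2 (0.87, adjusted p = 0.0514) or WT mouse 4 (0.88, adjusted p = 0.0572).

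*Ano1* and *Kcnn4* were the pair called in RC/RC against WT kidneys, the latter at the threshold. The 250 bases before their RefSeq start sites (GRCm38.p6, the assembly that mm10 represents) are therefore shown. They read 5′ to 3′ along each gene's own strand. The window of *Ano1* is chr7:144738574-144738823 (minus strand), inside the extent that the count table gives the gene, and that of *Kcnn4* is chr7:24370013-24370262 (plus strand), directly before its start. Capitals mark every match, on either strand, to the E-box CACGTG, the GC box GGGCGG, the TEAD motif GGAATG, the AP-1 motif TGANTCA or the CRE motif TGACGTCA.
Ano1: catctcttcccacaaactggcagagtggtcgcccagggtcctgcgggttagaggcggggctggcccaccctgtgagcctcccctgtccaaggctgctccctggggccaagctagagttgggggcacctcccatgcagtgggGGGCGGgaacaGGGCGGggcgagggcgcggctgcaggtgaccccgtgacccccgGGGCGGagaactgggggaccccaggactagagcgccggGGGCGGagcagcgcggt
Kcnn4: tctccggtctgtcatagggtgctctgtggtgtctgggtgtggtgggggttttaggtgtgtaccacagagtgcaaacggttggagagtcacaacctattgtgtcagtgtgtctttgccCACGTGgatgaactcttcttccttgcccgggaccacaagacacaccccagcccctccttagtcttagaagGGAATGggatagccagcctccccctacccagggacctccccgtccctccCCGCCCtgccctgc
The *Ano1* window, of which 72.0% is G and C, holds 4 GC boxes. The *Kcnn4* window, at 58.8% G and C, holds 1 E-box at −133, 1 TEAD match at −63 and 1 GC box at −14, counted from the start site to the first base of the match. Among 32851 windows of the same length, with a median of 52.4% G and C, a GC box is present in 32.7%, a TEAD match in 12.6%, an E-box in 6.02%, an AP-1 match in 6.75% and a CRE in 1.55%. Genes that were not called hold such matches too: 6 GC boxes in *Cftr*, 2 in *Ano6*, and in the windows of the 2 listed starts of *P2ry2* 2 GC boxes in 1 and 4 GC boxes with an E-box at −18 in the other. No window of *Slc12a2* was examined. The matches describe the letters only, and binding was not measured.

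*Kcnn4* encodes KCa3.1, the intermediate-conductance calcium-activated potassium channel that recycles potassium in secreting epithelia and is also a channel of lymphocytes and other blood cells. It spans chr7:24370263-24385209 on the plus strand. With 18, 25, 24 and 18 reads in the WT mice, it had the fewest reads of the 6 genes, so counting error weighs most on it. The levels were 0.861, 1.20, 1.20 and 0.843 CPM in WT and 2.02, 4.00, 1.56 and 1.98 CPM in RC/RC mice, with no overlap. The log2 fold change was 1.21 (SE 0.35, interval 0.43 to 1.99), a 2.31-fold rise with an adjusted p = 0.0493 (edgeR's quasi-likelihood test). That call sits at the threshold. It was made in 1 of the 8 fits that leave out 1 mouse, where adjusted p lay between 0.0491 and 0.132 and the log2 fold change between 0.82 and 1.37.

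*Kcnn4* stood at 0.731, 0.759, 0.831 and 2.91 CPM in RC/RC:*Casp1*KO mice. Mice 1 to 3 lay below all WT mice, and mouse 4 lay among the RC/RC mice. Over all 4 mice the log2 fold change against RC/RC was −0.87 (SE 0.51, interval −2.02 to 0.29, adjusted p = 0.278, edgeR's quasi-likelihood test). Without mouse 4 it was −1.62 (adjusted p = 0.0372, edgeR's quasi-likelihood test). *Kcnn4* was then the only 1 of the 6 genes called in that comparison, where 9.04% of 15569 genes were. Mouse 4 had the highest *Kcnn4* of its group, so leaving it out makes the fall larger by construction. This call therefore does not stand on its own. Against WT, the difference of 0.36 (interval −0.75 to 1.48) became −0.40 without mouse 4 (adjusted p = 0.529), and 0.79% of 15563 genes were called there.

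*Ano6* encodes TMEM16F, a calcium-activated lipid scramblase that also conducts ions. Its span is chr15:95790843-95975464, plus strand. WT mice had 106.1, 105.4, 129 and 127 CPM, RC/RC mice 131, 101, 94.5 and 105.96 CPM, and RC/RC:*Casp1*KO mice 115, 115, 114 and 120 CPM. This was the steadiest gene of the 6, with overlapping groups. The log2 fold change was −0.12 for RC/RC against WT (SE 0.14, interval −0.43 to 0.19, adjusted p = 0.584, edgeR's quasi-likelihood test). It was 0.11 (interval −0.15 to 0.36) against RC/RC and −0.0018 (interval −0.22 to 0.22) against WT for RC/RC:*Casp1*KO kidneys. The sign of the last value depended on the scaling and the filter.

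*Slc12a2* encodes NKCC1, the sodium-potassium-chloride cotransporter that loads the cell with chloride from the blood side, and was counted on chr18:57878678-57946821, plus strand. The WT mice had 37.1, 37.8, 90.8 and 73.7 CPM, the RC/RC mice 36.3, 30.4, 38.8 and 56.0 CPM and the RC/RC:*Casp1*KO mice 40.2, 43.2, 58.2 and 53.2 CPM. WT mice fell into a low pair (1 and 2) and a high pair (3 and 4), and in the other groups, too, mice 1 and 2 were below mice 3 and 4. As for *P2ry2*, the fit counted this split as spread within groups. A pair of RC/RC mice lay below all WT mice, and the other mice of both groups lay within the WT range. The log2 fold change of RC/RC against WT was −0.58 (SE 0.32, interval −1.29 to 0.13, adjusted p = 0.255, edgeR's quasi-likelihood test). For RC/RC:*Casp1*KO kidneys it was 0.26 against RC/RC (interval −0.19 to 0.72) and −0.29 against WT (interval −0.97 to 0.38).

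**Figure D2:**
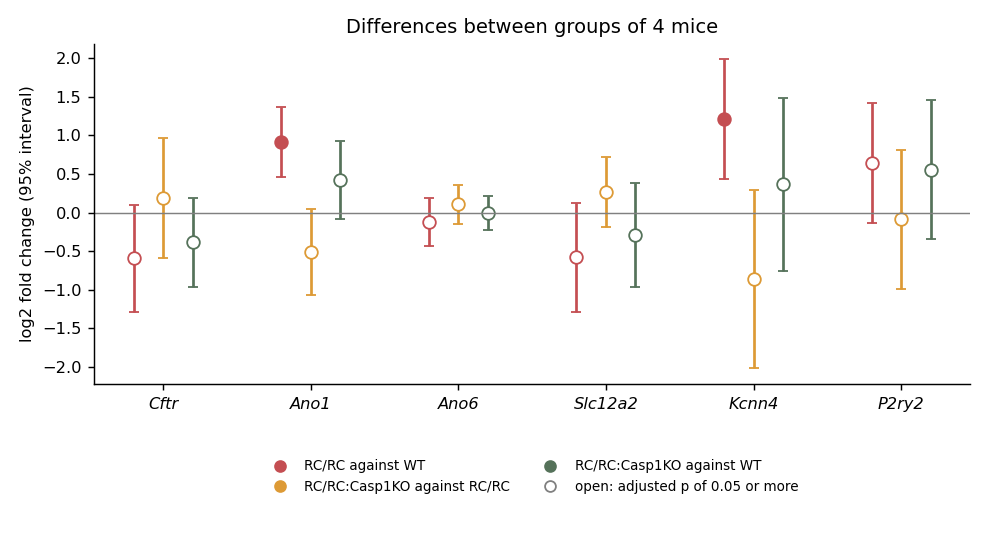
Log2 fold change of each gene (points) with its 95% interval (bars) in the 3 comparisons, 4 mice per group, edgeR's quasi-likelihood fit. Filled points passed an adjusted p of 0.05; only *Ano1* (0.92) and *Kcnn4* (1.21) in RC/RC against WT did.

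Neighbouring genes on the same stretches of the genome had few reads. *Cftr* overlaps the antisense gene *Gm15592*, with at most 1 read in any mouse. *Ano6* overlaps *Gm17546* and *A130051J06Rik*, with at most 79 and 39 reads beside at least 1751 for *Ano6* in every mouse. Transcripts of other genes that match by at least 95% over 100 bases or more were found for *Cftr*, *Ano1*, *Ano6* and *P2ry2*, the longest over 325 bases, and for neither *Kcnn4* nor *Slc12a2*. Whether the counting used strand or kept reads with several matches is not given in the sources used here.

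The leukocyte markers moved in the same direction as *Kcnn4* and *Ano1*. All 4 were higher in RC/RC than in WT kidneys (list median log2 fold change 1.52), as were 5 of 6 T cell markers, 4 of 5 macrophage markers and 6 of 6 B and plasma cell markers. Of these, 3 T cell markers and 1 B cell marker met the minimum of reads in RC/RC mice only. T cell markers, led by *Lck* with none at 0, summed to 7.80, 4.69, 5.59 and 4.45 CPM in WT, 17.8, 29.2, 20.4 and 11.2 in RC/RC and 8.58, 10.01, 9.75 and 22.3 CPM in RC/RC:*Casp1*KO mice. RC/RC mouse 2, the highest for both channels, and RC/RC:*Casp1*KO mouse 4 were also the highest of their groups for the T cell and leukocyte sums. For macrophage markers the highest RC/RC mouse was mouse 1, at 265 CPM beside 217 in mouse 2. The ratio of *Kcnn4* to *Ptprc* below relates *Kcnn4* to a single marker, and the part of leukocytes in these values was not tested.

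**Figure D3:**
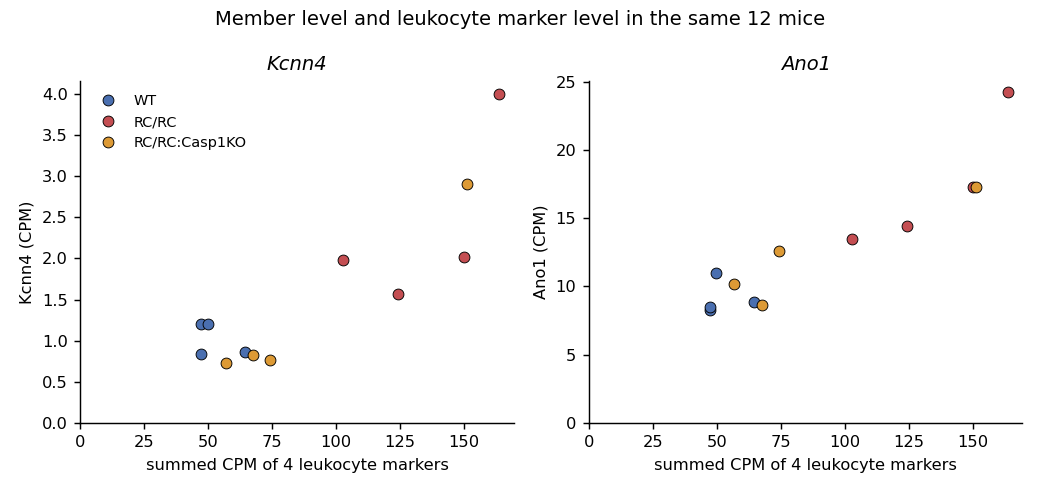
*Kcnn4* (left) and *Ano1* (right) in CPM against the summed CPM of 4 leukocyte markers in the same 12 mice (1 point per mouse, colored by group; axes from 0). The RC/RC mice and 1 RC/RC:*Casp1*KO mouse lie at 103 CPM or more of the markers; the other 7 mice lie at 74.2 CPM or less, with *Kcnn4* at 1.20 CPM or less.

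Dividing *Kcnn4* by *Ptprc*, the gene of the leukocyte surface protein CD45, within each mouse gave log2 ratios (per kilobase) of −2.96, −2.14, −2.42 and −2.88 in WT and −2.81, −1.61, −2.53 and −2.30 in RC/RC mice. These ranges overlapped, with a difference in means of 0.29 (p = 0.457, two-sided exact permutation test). The ratios in RC/RC:*Casp1*KO mice were −3.14, −3.68, −3.49 and −2.97, below every mouse of the other groups. The differences were −1.01 from RC/RC and −0.72 from WT, each with p = 0.0286 in the exact permutation test, the smallest that 70 assignments allow, and 0.129 after Benjamini-Hochberg adjustment over 9 tests. Without mouse 4 they were −1.12 and −0.84, each with p = 0.0571 in the exact permutation test. *Ptprc* was at 15.7 ± 1.57 CPM in WT, 28.7 ± 5.94 in RC/RC and 30.8 ± 18.7 CPM in RC/RC:*Casp1*KO kidneys (SD, n = 4), with 58.3 CPM in mouse 4. Of the 4 leukocyte markers, *Ptprc* was the only 1 with a positive log2 fold change in RC/RC:*Casp1*KO against RC/RC kidneys (0.10, adjusted p = 0.867, edgeR's quasi-likelihood test), and without mouse 4 its value was −0.40 (adjusted p = 0.222). *Cd52* was lower (−1.10, adjusted p = 0.0492), and *Coro1a* and *Laptm5* were at −0.90 and −0.85 (adjusted p = 0.0520 and 0.0755). Mouse 4 was the highest of its group for these 3 and for *Kcnn4*. Without it these 3 were all called, at −1.47, −1.19 and −1.23, as was *Kcnn4* at −1.62. Leaving out the highest mouse makes these falls larger by construction, so these calls do not stand on their own.

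Ratios of secretion to absorption genes did not separate the groups. The log2 ratio of *Slc12a2* to *Slc12a1*, which encodes the absorptive cotransporter NKCC2 of the thick ascending limb, averaged −5.05 ± 0.955 in WT, −4.90 ± 0.684 in RC/RC and −5.12 ± 0.625 in RC/RC:*Casp1*KO mice (SD, n = 4). The log2 ratio of *Cftr* to *Scnn1a*, a subunit of the sodium channel ENaC, averaged −4.97 ± 0.731, −5.36 ± 0.640 and −5.21 ± 0.972. The exact permutation p was 0.457 or more in all 6 tests, 0.8286 after adjustment over the 9.

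Some markers of other tissue cells were also higher in RC/RC than in WT kidneys. Of 9 markers of dedifferentiated tubule cells, 6 were higher in RC/RC than in WT kidneys (median log2 fold change 1.41, or 1.34 without *Havcr1*, which met the minimum of reads in RC/RC mice only), and their sum, led by *Spp1* with none at 0, was 2563, 2032, 901 and 1031 CPM in WT, 6378, 4265, 2892 and 2657 in RC/RC and 1789, 2212, 992 and 2477 CPM in RC/RC:*Casp1*KO mice. All 5 fibroblast and pericyte markers were higher (median 2.06). Of 5 genes in the smooth muscle list (median 0.89, 4 of 5 positive), 1 was higher, *Acta2* at 1.29 (adjusted p = 0.0302, edgeR's quasi-likelihood test). *Kit*, which marks the pacemaker cells known for *Ano1* rather than smooth muscle, was the 1 below 0 (−0.18). The genes of this list, *Kit* included, led by *Acta2* with none at 0, summed to 148, 127, 151 and 110 CPM in WT, 158, 368, 201 and 151 in RC/RC and 110, 118, 108 and 112 CPM in RC/RC:*Casp1*KO mice. *Ano1* reached 17.3 CPM in RC/RC:*Casp1*KO mouse 4 while these summed to 112 CPM, the level of the other mice of that group. The part of these cells in the *Ano1* values was not tested.

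**Figure D4:**
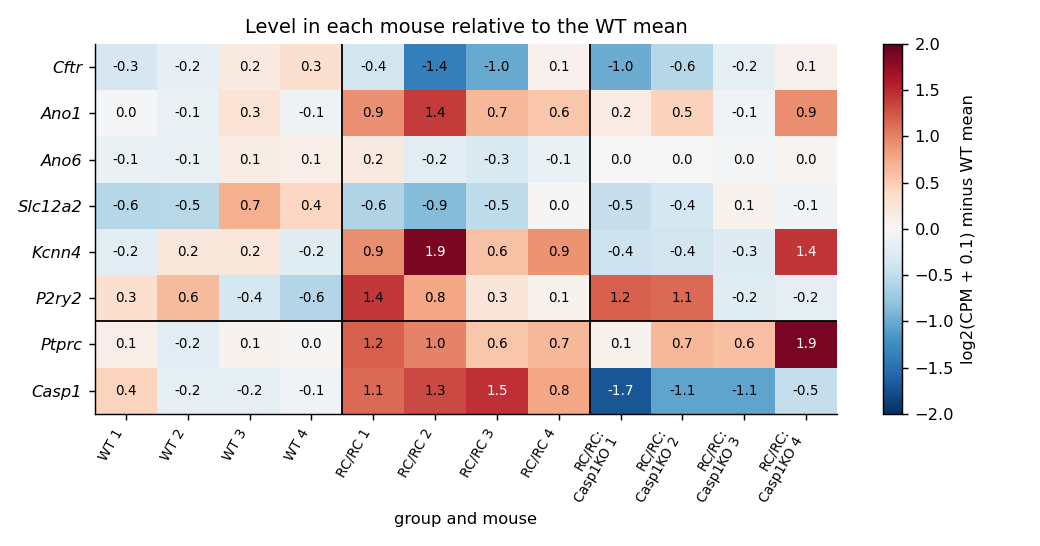
Log2(CPM + 0.1) of the 6 genes, *Ptprc* and *Casp1* in each of the 12 mice (columns) minus the WT mean of that gene (red higher, blue lower). *Kcnn4* is 1.9 above the WT mean in RC/RC mouse 2 and 1.4 above it in RC/RC:*Casp1*KO mouse 4.

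Over the 12 mice, *Ano1* and *Kcnn4* had the most similar pattern of any pair among the 6, with a mean absolute difference of 0.362 in standardized log2 CPM, followed by *Cftr* and *Slc12a2* at 0.566. *P2ry2* and *Slc12a2* were the least alike at 1.62. Among 14162 other genes with a mean of at least 1 CPM, the pattern of *Ano1* was most like those of *Map4k4* (0.185), *Igkv6-17* (0.195) and *H1fx* (0.208). *Kcnn4* was most like *Meis3* (0.204), *Scn2b* (0.269) and *Il7r* (0.314), the gene of the interleukin 7 receptor. *Cftr* was most like *Eif3a* (0.182), *Gcc2* (0.250) and *Pik3c2a* (0.254), and *Slc12a2* most like *Sgtb* (0.199), *Slc52a3* (0.213) and *Wdr81* (0.243). *P2ry2* was most like *Akr1c12* (0.210), *Ppic* (0.229) and *Orai1* (0.230), which encodes the store-operated calcium channel, and *Ano6* most like *Galnt7* (0.238), *Fkbp15* (0.288) and *Diap2* (0.322). The points share libraries, and the likeness is a description of these 12. It includes spread within groups, such as the split of mice 1 and 2 from mice 3 and 4 in *P2ry2* and *Slc12a2*. How much of the likeness comes from differences between groups was not tested.

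The genes that surround the 6 in the secretory pathway were read from lists. Of 18 other purinergic receptors, 15 had enough reads in RC/RC against WT kidneys, and 4 of these were higher and 1 lower (median log2 fold change 0.67, beside −0.02 over all genes). *P2ry10* was higher by 2.03 (SE 0.38, adjusted p = 0.00835, edgeR's quasi-likelihood test) and *Adora2a*, an adenosine receptor that acts through cyclic AMP, by 1.30. *P2ry12* stood at 0.144 to 0.281 CPM in WT and 0.863 to 1.396 CPM in RC/RC mice, and *P2ry13* at 0.0478 to 0.200 and 0.558 to 1.12 CPM. These ADP receptors and *P2ry10* are known from blood cells and macrophages rather than from tubules. The WT mice had 9 to 15 reads of *P2ry10*, 3 to 6 of *P2ry12* and 1 to 4 of *P2ry13*, so these 3 met the minimum of reads in RC/RC mice only and could be tested only because they were high there. The 10 receptors that met it in both groups had a median of 0.65. *P2ry1*, an ADP receptor coupled to calcium, was lower (−0.65, adjusted p = 0.0484). Compared with RC/RC kidneys, RC/RC:*Casp1*KO kidneys had 1 of 16 lower and 0 higher, again *Adora2a* (−1.29, adjusted p = 0.0432). Without mouse 4 *Adora2a* was not called (−1.23, adjusted p = 0.0843) and *P2ry10* was lower (−1.68, adjusted p = 0.0422). The most abundant receptor, the ATP-gated channel *P2rx4*, was at 49.2 ± 1.91, 45.9 ± 3.12 and 48.9 ± 5.42 CPM in WT, then RC/RC, then RC/RC:*Casp1*KO kidneys, an order kept below, and was not called.

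Of 15 genes for nucleotide release and breakdown, 12 were tested and 2 were higher in RC/RC kidneys (list median −0.34). *Panx1*, a channel that releases ATP, was at 1.39, 0.814, 0.499 and 0.562 CPM in WT and at 5.19, 5.63, 3.29 and 2.53 CPM in RC/RC mice. The groups were far apart, with a log2 fold change of 2.34 (SE 0.39, adjusted p = 0.00551, edgeR's quasi-likelihood test). The RC/RC:*Casp1*KO mice had 1.58, 2.23, 1.83 and 3.09 CPM. The first 3 lay between the other groups and mouse 4 within the RC/RC range, and the difference from RC/RC was −0.93 (adjusted p = 0.0846). Without mouse 4 this difference was −1.14 (adjusted p = 0.0636, edgeR's quasi-likelihood test). *Entpd1*, the surface enzyme CD39 that removes ATP and ADP, was higher by 0.67 in RC/RC (adjusted p = 0.0414) and lower in RC/RC:*Casp1*KO against RC/RC kidneys (−0.93, adjusted p = 0.0128), where *Entpd8* was higher by 0.69. *Alpl*, the most abundant gene of the list, was not called, and *Entpd4* had no reads in any mouse.

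Among 22 genes of calcium signaling, 2 were higher and 2 lower in RC/RC against WT kidneys (median 0.07). *Orai2*, a calcium channel subunit, rose by 0.99 (adjusted p = 0.0147) and *Plcb2*, the phospholipase of blood cells, by 0.94, whereas the IP3 receptor *Itpr2* was lower (−0.75, adjusted p = 0.0143), as was the calcium pump *Atp2a2* (−0.52). Compared with RC/RC, RC/RC:*Casp1*KO kidneys had *Itpr1* (0.68) and *Itpr2* (0.86) higher and the calmodulin gene *Calm2* (−0.47) lower. Without mouse 4, *Itpr2* (0.97) was the only 1 of the list called. None of the 21 genes of CFTR scaffolds, trafficking and kinases, among them *Slc9a3r1* at 381 ± 25.6, 358 ± 70.1 and 331 ± 54.2 CPM, passed the test in either comparison, with list medians of −0.11 and −0.02.

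Anion channels and exchangers outside the 6 had 25 of 28 genes tested, with 2 higher and 5 lower in RC/RC against WT kidneys (median −0.34). Among the lower genes were *Clcn7* (−0.78), *Clcn4-2* (−0.59), *Lrrc8d* (−0.74) and *Best3* (−1.65). The higher were 2 genes of the CLCA family, which are not channels themselves, listed by the older names *Clca1* (1.00) and *Clca2*. *Clca2* had 0 to 36 reads in WT and 110 to 164 in RC/RC mice, so it met the minimum of reads in RC/RC mice only, as *Best3* did in WT mice only (10 to 33 reads beside 4 to 11). Of the other anoctamins, 6 of 8 were tested and 0 were called in RC/RC against WT by edgeR, with *Ano3* at −1.20 (adjusted p = 0.0859). *Ano3* was then higher by 1.61 in RC/RC:*Casp1*KO against RC/RC kidneys (adjusted p = 0.0409), and by 1.83 without mouse 4 (adjusted p = 0.0260, edgeR's quasi-likelihood test). *Ano10*, the most abundant of them, was at 30.9 ± 1.66, 30.5 ± 1.15 and 26.8 ± 2.77 CPM. *Clcn6* (0.87, adjusted p = 0.0189) and *Slc26a11* (0.64) were higher and *Lrrc8c* (−0.49) lower in RC/RC:*Casp1*KO against RC/RC kidneys, with a list median of 0.31 beside −0.03 over all genes. Without mouse 4, *Clcn6* (0.86) was still called, *Slc26a11* and *Lrrc8c* were not, and *Clca2* was lower (−1.44, adjusted p = 0.0197, edgeR's quasi-likelihood test).

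Cation-chloride cotransporters and their kinases, the family of *Slc12a2*, had 4 of 17 genes lower and 0 higher in RC/RC against WT kidneys (median −0.31). *Slc12a3*, the thiazide-sensitive cotransporter of the distal convoluted tubule, fell by 2.03 on the log2 scale (SE 0.33, adjusted p = 0.00444, edgeR's quasi-likelihood test), from 978 ± 151 to 241 ± 119 CPM. *Klhl3* (−1.48), *Wnk1* (−0.80) and *Wnk4* (−0.64), which set the activity of that cotransporter, were the others. Set against RC/RC, RC/RC:*Casp1*KO kidneys had 4 of 18 higher and 0 lower: *Slc12a3* (1.44, adjusted p = 0.0454), *Wnk4* (0.66), *Slc12a7* (0.69) and *Slc12a9* (0.54). Without mouse 4, *Wnk4* (0.73) and *Slc12a9* (0.48) were called. *Slc12a3* (1.49, adjusted p = 0.0685) and *Slc12a7* (0.64, adjusted p = 0.0955) were not (edgeR's quasi-likelihood test). *Slc12a1*, the most abundant, was at 1360 ± 293, 891 ± 339 and 1250 ± 336 CPM and was not called.

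Potassium channels and sodium pump genes beside *Kcnn4* had 3 higher and 1 lower of 29 in RC/RC against WT kidneys (median 0.01). The pump regulator *Fxyd5* stood at 11.8, 10.1, 9.94 and 8.81 CPM in WT mice. Its RC/RC values were 26.6, 36.3, 25.5 and 18.6 CPM, compared with 10.8, 10.3, 9.58 and 21.7 CPM in RC/RC:*Casp1*KO mice. As for *Kcnn4*, the RC/RC mice were all above the WT mice and RC/RC:*Casp1*KO mouse 4 was far above mice 1 to 3. *Fxyd5* rose by 1.39 in RC/RC (SE 0.20, adjusted p = 0.00255) and fell by 1.03 in RC/RC:*Casp1*KO against RC/RC kidneys (adjusted p = 0.0492, edgeR's quasi-likelihood test). *Kcnk6* (0.89) and *Fxyd1* (1.47) were also higher in RC/RC, the potassium leak channel *Kcnk5* was lower (−1.60, adjusted p = 0.0147), and *Fxyd6* was lower in RC/RC:*Casp1*KO against RC/RC kidneys (−1.05). Without mouse 4 the fall of *Fxyd5* was −1.38 (adjusted p = 0.0110), and *Fxyd6* was not called (−1.09, adjusted p = 0.0563). *Fxyd2*, the most abundant, was at 2185 ± 277, 2208 ± 630 and 1637 ± 293 CPM and was not called.

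Of 9 genes of the absorptive tubule, *Slc12a3* was the only 1 called, lower in RC/RC against WT and higher in RC/RC:*Casp1*KO against RC/RC kidneys (list medians 0.08 and 0.14). *Aqp1*, the water channel of the proximal tubule and the most abundant of them, was at 875 ± 151, 933 ± 122 and 936 ± 198 CPM. In RC/RC:*Casp1*KO against WT kidneys 2 genes over these 9 lists were called. *Clcn6*, a chloride-proton exchanger of endosomes, was higher by 0.98 (SE 0.13, adjusted p = 0.00959) and *Clcn4-2* was lower (−0.47, SE 0.07, adjusted p = 0.0189, edgeR's quasi-likelihood test), of which *Clcn6* alone was called without mouse 4 (0.97).

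**Figure D5:**
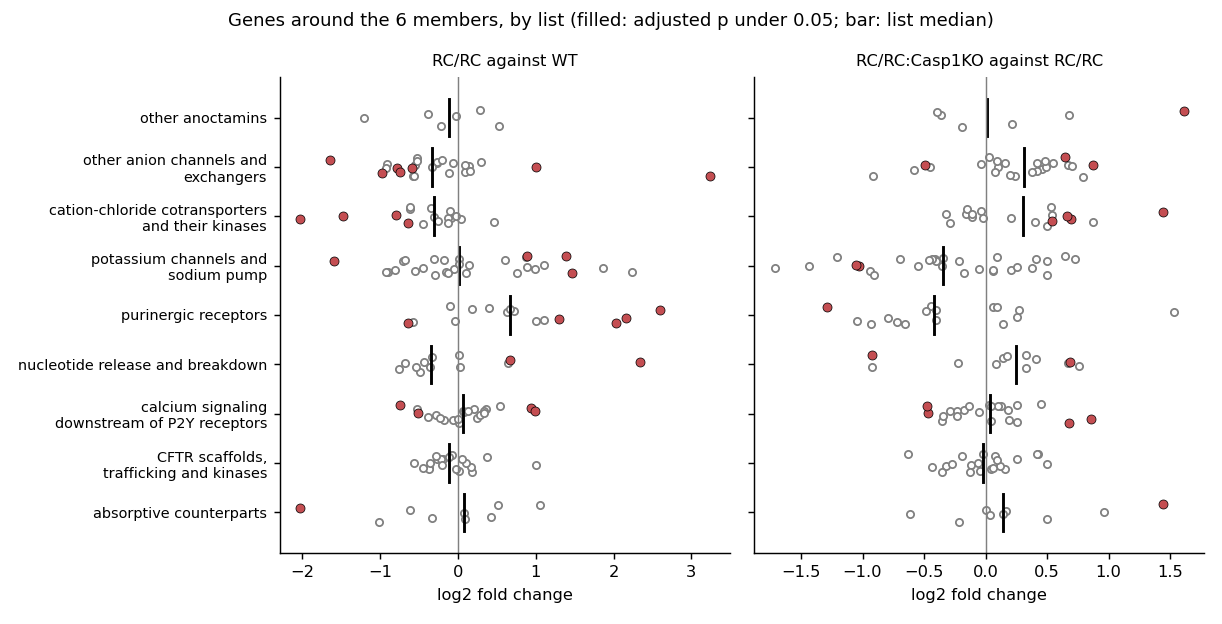
Log2 fold changes of the genes in 9 lists around the 6 members (1 point per gene tested, filled where the adjusted p was under 0.05, black bar at the list median) for RC/RC against WT (left) and RC/RC:*Casp1*KO against RC/RC (right). Cotransporters and kinases have 4 genes lower on the left and 4 higher on the right, with only *Slc12a3* and *Wnk4* in both sets. Over all genes, 3.18% were called lower on the left and 7.23% higher on the right, and both panels use the same RC/RC mice. On the left, 3 of the 4 purinergic receptors called higher had at most 15 reads in any WT mouse.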

How the data were processed

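Poly(A) RNA libraries from kidney tissue were sequenced and processed for the authors by Novogene. The submitters' processing notes name CASAVA 1.8, STAR and mm10, and coordinates of 99.85% of 26770 genes overlapped GRCm38.p6; the counting tool, annotation and strand setting are not given in the sources used here. The authors deposited raw counts of reads per gene for each mouse; their FPKM, fold changes and p-values in the same table were not used. Columns that match no group numbered 0.

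Counts of each pair of groups (8 mice) were fitted in edgeR 4.0.16 under R 4.3.3, after filterByExpr and with TMM factors, and its quasi-likelihood test was applied. Calls took a Benjamini-Hochberg adjusted p under 0.05 over all genes tested. Standard errors are the log2 fold change over the square root of F, and 95% intervals use its degrees of freedom. FPKM was recomputed from counts, TMM-scaled totals and the deposited gene lengths. Ratios were tested by exact permutation. Replicates differed by more than sampling noise in every pair within groups. Near copies were sought with megablast in mouse transcripts. The fits were tested on simulated data.

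The 6 genes and all lists were chosen with earlier results of these data known. Named were the 6, *Casp1*, *Pkd1* and *Ptprc*, per list up to 4 called genes (smallest adjusted p first) and the most abundant by FPKM, and 3 genes of nearest pattern per member. *Best3*, *Lrrc8c*, *Lrrc8d*, *Clca1*, *Clca2*, *Slc26a11*, *Wnk1*, *Slc12a7*, *Fxyd1*, *P2ry1*, *Plcb2*, *Atp2a2*, *Havcr1* and *Kit* were added after their values were seen, and some genes that the rule takes are not reported here. Alternatives were DESeq2 1.42.0, RLE or no scaling factors, other filters, a dispersion shared by 12 mice, a pseudocount of 0.1 in ratios and leaving out each mouse. Fits of the lists without RC/RC:*Casp1*KO mouse 4 were added after seeing the data.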

Additional observations from a re-analysis of the deposited data

Results flagged for a closer look

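*Kcnn4* in RC/RC:*Casp1*KO mouse 4, at 2.91 CPM, lay far from the other 3 mice of its group, which had 0.731, 0.759 and 0.831 CPM. Its gap to the nearest was 0.954 of the range of the group, above the 95% critical value of Dixon's test for 4 samples. Of 27 groups of values examined this way, 1 was picked out, and chance alone picks out about 1 in 20. The same mouse had 151 CPM of the leukocyte markers, beside 56.8 to 74.2 CPM in the other 3. It also stood apart for some markers of other cells. Of the dedifferentiated tubule markers, *Lcn2* was at 62.1 CPM beside 4.65 to 12.7, and *Sox9* at 4.63 beside 0.831 to 1.38. The fibroblast marker *Col1a1* was at 127 CPM beside 33.98 to 52.5. Among the same lists, *Krt8* and *Dcn* lay within the range of the other 3 mice and *Lum* below it. The part of leukocytes or of these other cells in the *Kcnn4* value was not tested.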

How the results depend on the processing

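*Ano1* in RC/RC against WT kidneys kept its direction and its side of the threshold in 6 of 6 other settings (adjusted p 0.00104 to 0.0211). *Kcnn4* kept its call in 3 of 6 and lost it with RLE factors (1.20, adjusted p = 0.0513), all genes with at least 1 count (1.21, 0.0565) and a dispersion shared by all mice (1.21, 0.0987), which left 1 of the 6 genes called. DESeq2 called 2988, 3175 and 1406 genes in the first comparison (RC/RC against WT), the second (RC/RC:*Casp1*KO with RC/RC) and the third (RC/RC:*Casp1*KO with WT), where edgeR called 1971, 1797 and 311. Library size alone called 993 genes in the second, and at least 10 counts in every mouse 167 in the third. Library size alone also moved the median log2 fold change of all genes by 0.10, 0.05 and 0.13 and the share of calls that were higher from 75.4%, 62.1% and 55.9% to 86.1%, 82.0% and 79.8%. *Ano6* in the third turned to 0.13 with library size alone and 0.013 with at least 10 counts. The causes were not tested.

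Leaving out each mouse gave 1162 to 2440, 438 to 2789 and 108 to 547 called genes in the 3 comparisons and 0 to 2, 0 to 1 and 0 to 0 of the 6. Log2 fold changes then ran in the first from 0.68 to 1.02 (*Ano1*) and from 0.82 to 1.37 (*Kcnn4*). They ran in the second from −1.62 to −0.48 (*Kcnn4*), −0.0031 to 0.51 (*Cftr*) and −0.33 to 0.22 (*P2ry2*), and in the third from −0.052 to 0.041 (*Ano6*) and −0.40 to 0.57 (*Kcnn4*). Differences of the log2 ratios, in the same order of comparisons, ran from −0.15 to 0.49, −0.50 to 0.044 and −0.37 to 0.27 (*Slc12a2* to *Slc12a1*), −0.66 to −0.15, −0.12 to 0.53 and −0.51 to 0.14 (*Cftr* to *Scnn1a*), and 0.05 to 0.45, −1.17 to −0.78 and −0.84 to −0.57 (*Kcnn4* to *Ptprc*). No paired analysis was possible because the columns carry neither the labelled replicate numbers nor the sex of a mouse, and sex was not inferred from the reads. The fits therefore held no block, and any split of mice within a group stayed in their error.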

Other observations

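Few markers of the tubule segments around the 6 genes passed the test in RC/RC against WT kidneys. The 4 principal cell markers, from the collecting duct in which *Cftr* is best known in cysts, summed to 371 to 789 CPM in WT, 881 to 1292 in RC/RC and 695 to 926 CPM in RC/RC:*Casp1*KO mice. RC/RC mice lay above all WT mice for this sum, although 0 of the 3 markers with enough reads passed edgeR's quasi-likelihood test (list median log2 fold change 0.74, *Aqp2* 1.05 with an adjusted p = 0.0739), and *Avpr2* was at 0 in at least 1 mouse. The 4 thick ascending limb markers summed to 5296 to 9504 CPM in WT, 3521 to 6406 in RC/RC and 4576 to 8512 CPM in RC/RC:*Casp1*KO mice, with 1 of 4 lower in RC/RC. The 5 proximal tubule markers had 1 lower in RC/RC against WT kidneys (median −0.93) and 1 higher in RC/RC:*Casp1*KO against RC/RC kidneys (median 0.94).

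Intercalated cell markers (0 of 4 called, median −0.75), endothelial markers (0 of 4, median 0.29) and podocyte markers (1 of 4 lower, median −0.47) completed the lists for RC/RC against WT kidneys. In RC/RC:*Casp1*KO against RC/RC kidneys, 3 of 5 fibroblast and pericyte markers, 2 of 5 smooth muscle markers, 3 of 9 dedifferentiated tubule markers and 1 each of the leukocyte, macrophage and B and plasma cell markers were lower, and 0 of 6 T cell markers were called. Without RC/RC:*Casp1*KO mouse 4, a count added after seeing the data, 3 of 4 leukocyte, 4 of 5 macrophage, 2 of 6 B and plasma cell, 5 of 9 dedifferentiated tubule, 3 of 5 fibroblast and pericyte, 2 of 5 smooth muscle and 0 of 6 T cell markers were lower, where 4.42% of all genes were, beside 4.41% with all mice. Mouse 4 was left out because its leukocyte marker sum stood apart. It was also the highest of its group for the macrophage, B and plasma cell, T cell, fibroblast and dedifferentiated tubule sums. Leaving it out makes the falls of such markers larger by construction, so these counts do not stand on their own.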
